A study of Mus musculus with 2 samples.

Results

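Heat shock chaperones were described in mouse peritoneal macrophages treated with LPS+CPN+GGOH and in macrophages treated with LPS+CPN. The 10 genes were Hspa1a, Hspa1b, Hspa8, Hspb1, Hsp90aa1, Hsp90ab1, Hspd1, Dnaja1, Dnajb1 and Hsph1. All probe sets that the platform annotation pairs with 1 of these symbols alone were taken, which gave 23 of 34945 single-gene probe sets and covered 9 of the 10 genes, within 18093 genes with a value in all. Hsp90ab1 had no such probe set in the annotation used and has no value here. The family was selected on the measured signals of the same 2 arrays, because Hspa1a and Hspa1b were lower and Hspb1 was higher with GGOH, so these ratios are a description and support nothing further.

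The cells of both groups came from C57BL/6J mice and were harvested 3 days after thioglycolate, an irritant injected into the peritoneal cavity to recruit macrophages. Both groups received LPS (lipopolysaccharide, a bacterial cell wall component that activates macrophages) and an agent that the labels name only as CPN, and 1 group also received GGOH (geranylgeraniol, an alcohol that cells convert into a lipid used to anchor small GTPases in membranes). Each group was 1 array, and neither dose, duration nor the number of animals behind each RNA is stated in the labels. With 1 array per group there is no replicate check, no standard error and no p-value, and all differences are those between 2 arrays.

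Heat shock proteins are chaperones that bind unfolded or newly made proteins. The HSP70 proteins fold clients in cycles of ATP binding and hydrolysis, driven by J-domain co-chaperones of the DNAJ family and reset by nucleotide exchange factors such as the HSP110 protein, while HSP90 acts later on signalling proteins, HSP60 folds proteins inside mitochondria, and small heat shock proteins hold unfolded proteins without ATP. Many of these genes are switched on under stress by the transcription factor HSF1, which binds heat shock elements made of inverted GAA units. In macrophages the clients of HSP90 include protein kinases of the LPS response.

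Values are MAS5 signal intensities on a linear scale, 1 per probe set and array, and a ratio is the log2 of the LPS+CPN+GGOH signal over the LPS+CPN signal. For the ratios, signals under a floor of 59.9, the median of all non-control signals of both arrays, were raised to the floor. A probe set under the floor on both arrays was treated as not measured. A probe set under it on 1 array counts as measured, and its ratio is a bound. Of 11518 measured genes, 9909 were above the floor on both arrays. A gene takes the value of its brightest probe set outside the _x_at class, whose probes can match other transcripts. Signals of different probe sets are not comparable as levels, so genes are compared by ratio alone. Probe sets that read 1 gene differed in log2 ratio with a pooled SD of 0.45 over 4166 genes; this is the only error the arrays themselves give, and it does not include the spread between cultures.

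The arrays also differed beyond the chaperones. Of 14 macrophage markers with a probe set, all were above the floor on both arrays, with a median log2 ratio of -0.30. Their ratios ran from -0.73 (Mertk) to 1.05 (Itgam), with 5 above 0 and 9 below. The summed signal was 206620 with LPS+CPN+GGOH and 241167 with LPS+CPN, a sum set mostly by the brightest probe sets. Of 17 mesothelial and fibroblast markers, 15 were above the floor on at least 1 array. In all, 12 passed 2-fold upward, beside 5.50% of all measured genes. Only 4 were above the floor on both arrays, Col1a2 (log2 ratio 5.28), Sparc (4.83), Dcn (3.16) and Krt8 (2.94). The rest of the 15 were above it with LPS+CPN+GGOH alone, so their ratios could not be below 0. The summed signal was 30396 with LPS+CPN+GGOH and 1575 with LPS+CPN, and 13 of the 17 were under the floor with LPS+CPN, Col1a1 and Wt1 among them. Of 10 markers of other leukocytes, 8 were under the floor on both arrays. The granulocyte marker S100a8 had 2216 with LPS+CPN+GGOH and 4282 with LPS+CPN (log2 ratio -0.95), S100a9 was among the 8, and Elane was above the floor with LPS+CPN alone (67.7). The ratio of 3' to 5' control signal, a measure of RNA integrity, was 1.24 for Actb with LPS+CPN+GGOH and 2.44 with LPS+CPN, and 0.956 for Gapdh with LPS+CPN+GGOH and 1.98 with LPS+CPN. The part of these differences in the chaperone values was not tested, and in RNA from whole cultures fewer cells of a type and less RNA per cell cannot be told apart.

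The promoters of the genes at the 2 ends of the range are shown, together with 2 that hold longer arrays of exact heat shock element matches. The windows run from 250 bases before the annotated start of transcription to 50 bases from it, and are from RefSeq (GRCm38.p6), which had windows for 7 of the 10 genes. Hspa1a lies at chr17:34969359-34972156 and Hspa1b at chr17:34956429-34959238, Hspb1 at chr5:135887919-135889563 and Hsph1 at chr5:149616843-149636498. The windows are chr17:34972107-34972406 (minus strand) for Hspa1a, chr17:34959189-34959488 (minus strand) for Hspa1b, chr5:135887669-135887968 (plus strand) for Hspb1, chr5:149636287-149636586 (minus strand) for the first of 2 Hsph1 windows, and chr1:55087898-55088197 (plus strand) for Hspe1, the divergent neighbour of Hspd1. Capitals mark matches to GAANNTTC or TTCNNGAA, 2 inverted GAA units, which read the same on both strands and may overlap by 3 bases.
Hspa1a: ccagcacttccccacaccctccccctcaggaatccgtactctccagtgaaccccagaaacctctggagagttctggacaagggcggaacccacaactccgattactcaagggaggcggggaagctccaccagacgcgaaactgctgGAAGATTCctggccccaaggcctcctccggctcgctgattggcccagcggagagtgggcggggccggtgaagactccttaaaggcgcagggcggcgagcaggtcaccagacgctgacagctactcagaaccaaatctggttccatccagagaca
Hspa1b: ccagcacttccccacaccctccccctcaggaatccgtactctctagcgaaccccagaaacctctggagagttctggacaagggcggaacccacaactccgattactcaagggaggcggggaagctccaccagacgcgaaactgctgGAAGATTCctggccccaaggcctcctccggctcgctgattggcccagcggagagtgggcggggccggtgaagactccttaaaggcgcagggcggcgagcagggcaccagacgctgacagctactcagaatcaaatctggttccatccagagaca
Hspb1: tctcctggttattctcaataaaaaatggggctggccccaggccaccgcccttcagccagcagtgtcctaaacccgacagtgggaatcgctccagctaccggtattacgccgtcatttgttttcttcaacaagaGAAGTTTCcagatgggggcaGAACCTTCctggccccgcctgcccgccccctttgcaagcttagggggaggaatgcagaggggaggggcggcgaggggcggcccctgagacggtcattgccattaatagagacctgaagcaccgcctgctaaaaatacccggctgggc
Hsph1: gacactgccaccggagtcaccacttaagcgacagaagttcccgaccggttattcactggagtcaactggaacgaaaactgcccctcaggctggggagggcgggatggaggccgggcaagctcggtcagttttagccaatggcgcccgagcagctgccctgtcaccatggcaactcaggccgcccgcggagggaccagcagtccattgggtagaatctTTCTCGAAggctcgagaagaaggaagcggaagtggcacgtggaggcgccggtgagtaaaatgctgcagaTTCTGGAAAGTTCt
Hspe1: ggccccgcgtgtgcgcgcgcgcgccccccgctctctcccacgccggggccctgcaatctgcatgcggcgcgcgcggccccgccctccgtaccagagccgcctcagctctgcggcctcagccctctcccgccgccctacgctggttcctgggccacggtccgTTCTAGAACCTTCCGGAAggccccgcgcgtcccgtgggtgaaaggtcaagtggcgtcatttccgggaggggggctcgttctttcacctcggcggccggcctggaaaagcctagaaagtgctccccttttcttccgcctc

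The Hspa1a and Hspa1b windows differed at 4 of 300 bases, which are C44T, T47C, T249G and C276T (the Hspa1a base, the position counted from 1 at the 5' end of the window, then the Hspa1b base), and were 98.7% identical. The starts of the 2 genes lie 12918 bases apart on the same strand. Both windows held 1 match, GAAGATTC, which began at position -104 from the start. The Hspb1 window held 2 separate matches, GAAGTTTC beginning at -117 and GAACCTTC beginning at -97. Both Hsph1 windows and the second of 2 Hspd1 windows held 3 matches each, with 3 or more inverted units in a row. The Hsph1 run lay after the annotated start, with matches beginning at 36 and 41 in window 1 and at 15 and 20 in window 2. The run in the second Hspd1 window lay before the start, beginning at -144. The Hspe1 window overlaps that Hspd1 window by 285 bases and showed the same cluster from the other strand. Dnaja1 had 1 match in 1 of its 3 windows and Dnajb1 none in 2 windows. In all, 6 of the 7 genes had a match in at least 1 window, against 15.1% of all 32851 promoter windows, and 2 of the 7 had 3 units in a row, against 0.603% of all windows; the per-gene count covers up to 3 windows a gene. CCAAT, another element of heat shock promoters, stood on either strand in windows of 6 of the 7 genes and in 37.4% of all windows. Only exact matches were counted, and units with a mismatch were left out. These matches are letters in a window and are not measured binding.

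**Figure D1:**
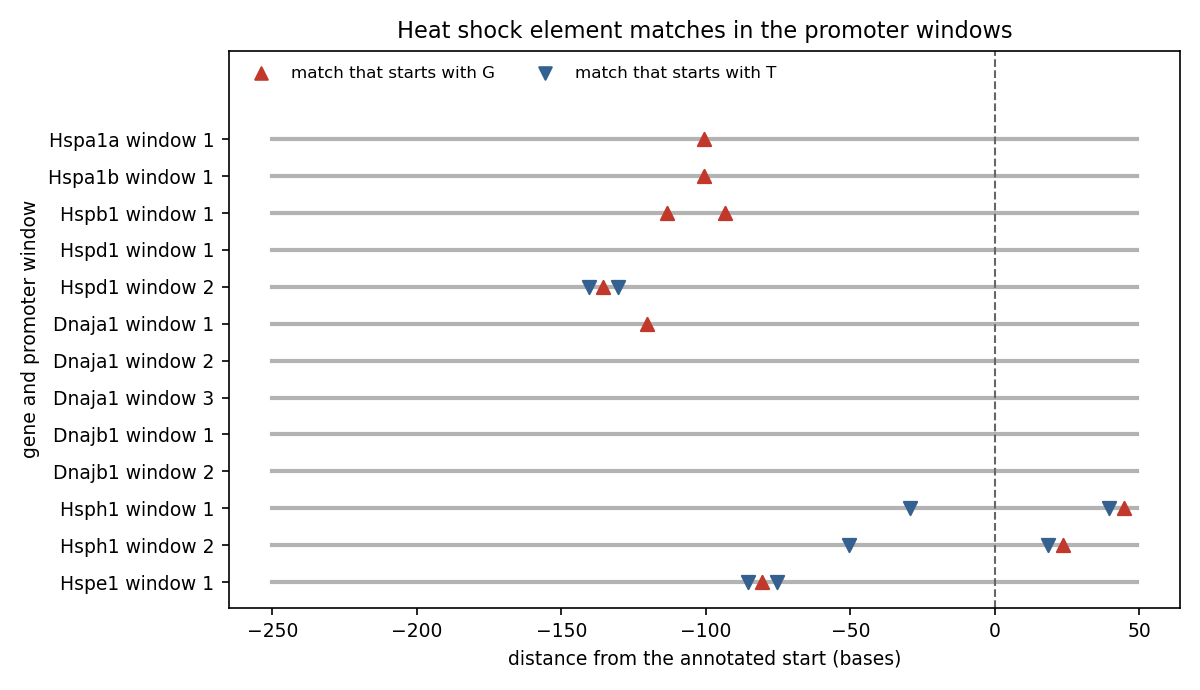
Positions of heat shock element matches in each promoter window (rows) by distance from the annotated start in bases (horizontal axis, start at 0). Triangles mark matches to the 2 motifs by their centre; Hspa1a and Hspa1b share 1 position, Hspb1 has 2, and Hspd1 window 2 and Hspe1 have 3 close together, and each Hsph1 window has 2 that overlap and 1 farther upstream.

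All 9 chaperone genes with a probe set were measured on both arrays. Both Hspa1b and Hspa1a had signals at least 2-fold lower with LPS+CPN+GGOH and Hspb1 was at least 2-fold higher. By their gene values the other 6 lay within the SD of 0.45 of no difference. Some of the 6 lay outside it under other settings. As the median over probe sets these were Hsp90aa1 (0.73), Hspa8 (0.56) and Dnajb1 (-0.49). Of all 11518 measured genes, 1.66% were at least 2-fold lower and 5.50% at least 2-fold higher; among those with a mean signal of 500 or more, 1.45% were lower and 1.31% higher. The genes were chosen on this contrast, so nothing is read from 2 of 9 and 1 of 9 against these shares. The median log2 ratio of the 9 genes was 0.15, beside -0.01 for all measured genes, whose middle 50% lay between -0.28 and 0.29. The median of the 9 was -0.02 with each array divided by its median and -0.23 with _x_at probe sets kept.

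Hspa1a and Hspa1b encode the stress-inducible HSP70, which is made in large amounts after heat or protein damage. Hspa1b had a signal of 4421 with LPS+CPN+GGOH and 12114 with LPS+CPN on its brightest probe set outside the _x_at class (1452318_a_at), a log2 ratio of -1.45, or 2.74-fold lower. Its probe set 1427126_at gave 2656 with LPS+CPN+GGOH and 8407 with LPS+CPN, a log2 ratio of -1.66. The _x_at probe set 1427127_x_at gave 3771 with LPS+CPN+GGOH and 12221 with LPS+CPN, a log2 ratio of -1.70. All 3 Hspa1b probe sets were therefore lower with GGOH by at least 2-fold, within a range of 0.24 on the log2 scale. The annotation gives the same source sequence for all 3, so they are not independent readings.

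Hspa1a, read by 1 probe set (1452388_at), had a signal of 3775 with LPS+CPN+GGOH and 8120 with LPS+CPN, a log2 ratio of -1.11, or 2.15-fold lower. Its ratio lay 0.35 above that of Hspa1b, less than the SD between probe sets. The coding sequences of the 2 genes are nearly the same, so a probe set named for one can take up RNA of the other and the 2 values are not independent. Hspa1b ranked 40 and Hspa1a 138 from the lowest ratio among 11518 measured genes. Hspa1a had a log2 ratio of -0.80 with the arrays scaled to equal macrophage markers, and Hspa1b kept a ratio of -1.15 under that scaling.

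Hspa8 encodes HSC70, the HSP70 protein that cells make without stress. Its probe sets disagreed in sign. The 2 of the _x_at class were lower, with 24221 with LPS+CPN+GGOH and 42301 with LPS+CPN on 1455789_x_at (log2 ratio -0.80), and 18014 with LPS+CPN+GGOH and 25853 with LPS+CPN on 1420623_x_at (-0.52). The other 2 were higher, with 9615 with LPS+CPN+GGOH and 7316 with LPS+CPN on 1420622_a_at (0.39), and 2372 with LPS+CPN+GGOH and 1441 with LPS+CPN on 1431182_at (0.72). The gene value by rule was 0.39, and it became -0.80 when _x_at probe sets were kept. No direction can be given for Hspa8. Over the 823 genes measured by both classes, 36.7% showed opposite signs in the 2 classes, and 3.16% had a gap at least as wide as that between the brightest Hspa8 probe set of each class (-1.20, _x_at minus other).

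Hspb1 encodes the small heat shock protein HSP25 (HSP27 in humans), which holds unfolded proteins and binds actin. Its probe set 1422943_a_at had a signal of 1714 with LPS+CPN+GGOH and 822 with LPS+CPN, a log2 ratio of 1.06, or 2.09-fold higher. The _x_at probe set 1425964_x_at had 1151 with LPS+CPN+GGOH and 325 with LPS+CPN, a log2 ratio of 1.82, or 3.54-fold higher. Both probe sets were thus higher with GGOH, by amounts that differed by 0.76 on the log2 scale. The gene ranked 583 from the highest ratio among the measured genes, and its ratio was 0.89 with each array divided by its median. On that array 12 of 17 mesothelial and fibroblast markers were also at least 2-fold higher, beside 5.50% of all measured genes. Of the 17, 13 were under the floor with LPS+CPN. The part of these markers in the Hspb1 value was not tested.

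**Figure D2:**
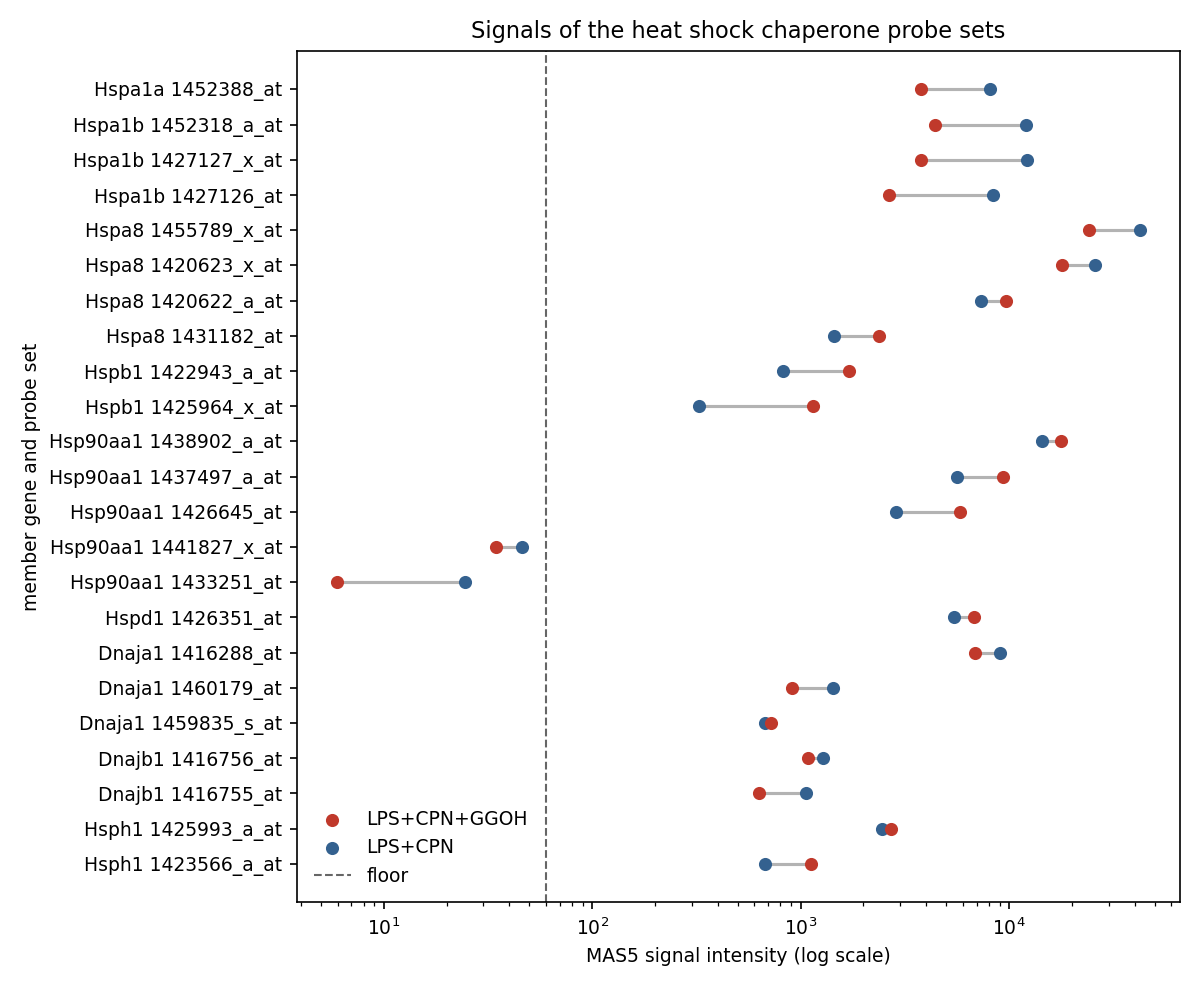
MAS5 signal intensity (log axis) of the 23 probe sets of the heat shock chaperone genes, with LPS+CPN+GGOH in red, LPS+CPN in blue and 1 array per group, and the floor of 59.9 as a dashed line. The 4 probe sets of Hspa1a and Hspa1b have the red point left of the blue one, both Hspb1 probe sets have it on the right, and 2 Hsp90aa1 probe sets lie under the floor on both arrays.

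Hsp90aa1 encodes HSP90 alpha, the inducible HSP90 of the cytosol. Of its 5 probe sets, 3 were above the floor and all 3 were higher with GGOH. The brightest, 1438902_a_at, had 17731 with LPS+CPN+GGOH and 14380 with LPS+CPN (log2 ratio 0.30). Probe set 1437497_a_at had 9337 with LPS+CPN+GGOH and 5615 with LPS+CPN (0.73), and 1426645_at had 5791 with LPS+CPN+GGOH and 2882 with LPS+CPN (1.01). The ratios covered a range of 0.70, so whether the gene passed 2-fold depended on the probe set. The remaining 2 probe sets gave 34.7 and 5.96 with LPS+CPN+GGOH and 46.1 and 24.4 with LPS+CPN, all under the floor.

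Hspd1 encodes the mitochondrial HSP60, which works as a chamber with the lid protein encoded by Hspe1. Hspd1 (1426351_at) had a signal of 6775 with LPS+CPN+GGOH and 5456 with LPS+CPN, a log2 ratio of 0.31. Hspe1 had 8211 with LPS+CPN+GGOH and 8599 with LPS+CPN, a log2 ratio of -0.07, with its 2 probe sets at -0.07 and 0.05. Both genes lay within the SD of no difference. Hspa9, the mitochondrial HSP70, had 7334 with LPS+CPN+GGOH and 4852 with LPS+CPN, a log2 ratio of 0.60. Its 3 measured probe sets were all above 0 but ranged from 0.01 to 0.60.

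Dnaja1 and Dnajb1 encode J-domain proteins of the cytosol that deliver clients to HSP70 and stimulate its ATPase. Dnaja1 had a signal of 6831 with LPS+CPN+GGOH and 9081 with LPS+CPN on 1416288_at (log2 ratio -0.41). Its other probe sets gave 914 with LPS+CPN+GGOH and 1433 with LPS+CPN on 1460179_at (-0.65), and 718 with LPS+CPN+GGOH and 674 with LPS+CPN on 1459835_s_at (0.09). The sign thus differed between the Dnaja1 probe sets. Dnajb1 had 1087 with LPS+CPN+GGOH and 1273 with LPS+CPN on 1416756_at (-0.23), and 632 with LPS+CPN+GGOH and 1062 with LPS+CPN on 1416755_at (-0.75). Both Dnajb1 probe sets were lower and neither passed 2-fold; the Dnajb1 ratio was 0.07 under equal macrophage markers.

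Hsph1 encodes HSP105, an HSP110 protein that exchanges nucleotide on HSP70. It had 2716 with LPS+CPN+GGOH and 2447 with LPS+CPN on 1425993_a_at (log2 ratio 0.15), and 1116 with LPS+CPN+GGOH and 674 with LPS+CPN on 1423566_a_at (0.73). Both probe sets were above 0 and short of 2-fold, and the gene value was -0.02 with each array divided by its median.

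Ordered by gene value from the highest log2 ratio, the genes were Hspb1 (1.06), Hspa8 (0.39), Hspd1 (0.31), Hsp90aa1 (0.30), Hsph1 (0.15), Dnajb1 (-0.23), Dnaja1 (-0.41), Hspa1a (-1.11) and Hspa1b (-1.45). Of the 8 gaps between neighbours, 2 exceeded the SD between probe sets. These were the 0.67 between Hspb1 and Hspa8 and the 0.69 between Dnaja1 and Hspa1a, and no other neighbours differed beyond that spread. Both gaps set apart Hspb1, Hspa1a and Hspa1b, the genes on which the family was picked, so nothing is read from them. That SD is for single probe sets, and a difference between probe sets varies more. At the ends of the order, Hspb1 lay 2.52 above Hspa1b on the log2 scale. Among the 7 genes with windows, Hsph1 and Hspd1 alone held 3 or more exact heat shock units in a row, and both lay in the middle of the order. Units with a mismatch were not counted, so other windows may hold longer imperfect runs. Of the 23 probe sets, 21 were measured; 11 of them were higher and 10 lower, with 3 past 2-fold upward and 4 past 2-fold downward. Of all 21025 measured single-gene probe sets, 6.29% were higher by that much and 1.58% lower by that much.

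**Figure D3:**
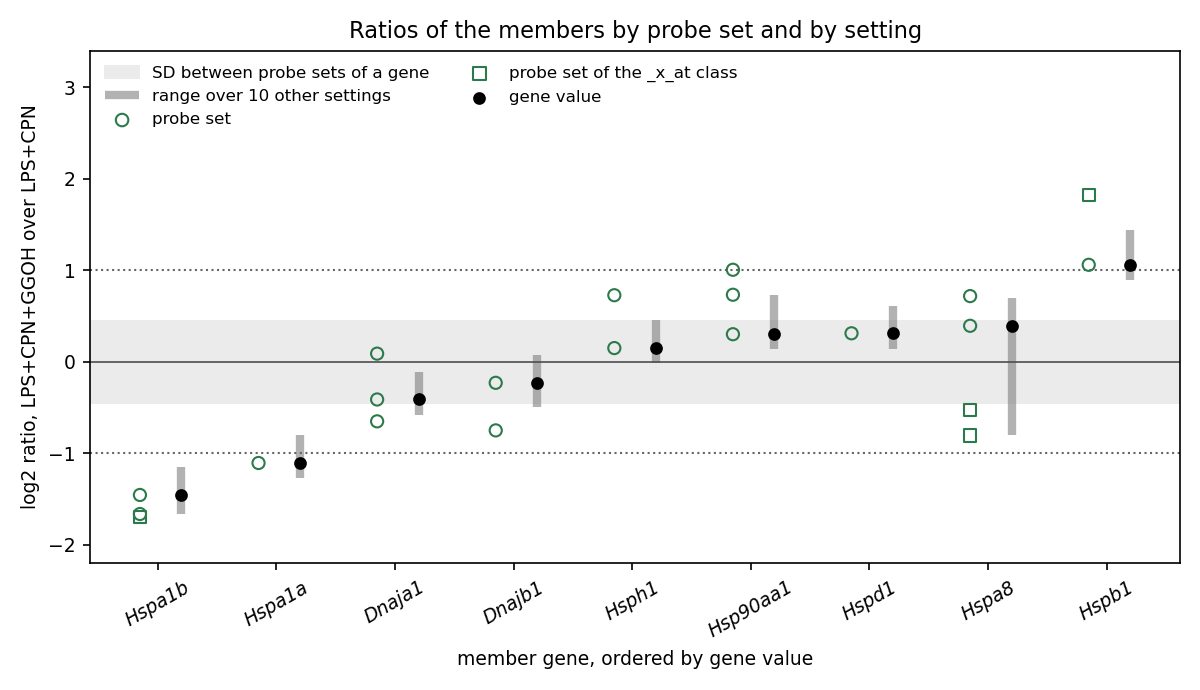
Log2 ratio of LPS+CPN+GGOH over LPS+CPN (vertical axis) for the 9 chaperone genes with a probe set, ordered by gene value. Open symbols are measured probe sets, black points the gene values, grey bars the range over 10 other settings, the shaded band the SD of 0.45, and dotted lines 2-fold; Hspa1b lies under the lower line in full and Hspa8 has symbols on both sides of 0.

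Genes that work with these chaperones were described from lists of the same pathways. Small heat shock proteins other than Hspb1 had the highest median ratio of the chaperone lists with the floor of 59.9. Of 9 genes, 5 were measured, 3 of them on both arrays. All 5 had ratios above 0, and 3 were at least 2-fold higher, beside 5.50% of all measured genes. Hspb8 and Hspb2 were above the floor with LPS+CPN+GGOH alone, so their ratios could not be below 0. The median log2 ratio of 1.82 is the bound of Hspb2. Cryab, alpha B-crystallin, had 3727 with LPS+CPN+GGOH and 583 with LPS+CPN, a log2 ratio of 2.68. Hspb8, which works with Bag3 in selective autophagy, had 453 with LPS+CPN+GGOH and 49.96 with LPS+CPN, which is under the floor, so it was at least 7.57-fold higher. Its other measured probe set was at 0.93, short of 2-fold, and its log2 ratio was 0.27 with the floor at the 75th percentile. Hspb2 had 211 with LPS+CPN+GGOH and 56.3 with LPS+CPN, also under the floor, and was at least 3.52-fold higher. Hspb6 (0.06) and Hspb11 (0.11) were close to 0, and both were below 0 with each array divided by its median, as was 1 of them after quantile normalization or lowess. The list depended on the floor. With the floor at the 25th percentile its median was 0.14, with 8 genes measured and 3 at least 2-fold higher. There it was no longer the highest median, since the other heat-inducible HSF1 targets described below had 0.18. A floor at the 75th percentile gave 0.27, with 3 measured and 1 (Cryab) at least 2-fold higher. The mesothelial and fibroblast markers (12 of 17 past 2-fold upward, 13 of the 17 under the floor with LPS+CPN) moved in the same direction. Their part was not tested.

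HSP70 and HSP110 proteins other than the family described had a median log2 ratio of -0.16 over 7 measured genes of 9, with none at least 2-fold apart; the median was 0.14 under equal macrophage markers. Hspa4l, a testis-enriched HSP110 protein that is also induced by heat, had 1453 with LPS+CPN+GGOH and 2374 with LPS+CPN, a log2 ratio of -0.71. All 5 of its probe sets were below 0, in a range from -1.37 to -0.71, and the gene was at least 2-fold lower under 2 of 10 other settings. Hspa2 (-0.33), Hspa14 (-0.27) and Hspa4 (-0.16) were also below 0, although 2 of 3 Hspa4 probe sets were above it. Among 11 measured nucleotide exchange and regulatory factors of HSP70 the median was 0.07 and none was 2-fold apart, with Grpel1 at 0.45, Hspbp1 at 0.29, St13 at -0.27, Bag1 at -0.23 and Bag3 at 0.20. Their median was -0.10 with each array divided by its median.

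Of 19 other DNAJ co-chaperones, 17 were measured, none was 2-fold apart and the median was -0.13, which was 0.17 under equal macrophage markers and 0.07 as the median over probe sets. Dnajb12 (-0.79), Dnajc8 (-0.49), Dnajc21 (0.43) and Dnajb4 (-0.40) had the ratios farthest from 0, and each of these had probe sets of both signs. Over 14 measured genes in a list of HSP90 co-chaperones and Trap1, the median was 0.05. It was below 0 under 5 of 10 other settings (-0.11 with each array divided by its median). In this list 1 gene was at least 2-fold higher (beside 5.50% of all measured genes) and none was at least 2-fold lower. That gene was Fkbp5, an immunophilin that binds HSP90 in steroid receptor complexes and is induced by glucocorticoids, with 603 with LPS+CPN+GGOH and 253 with LPS+CPN (log2 ratio 1.25; 0.86 on its other measured probe set). Its ratio was 0.68 with the floor at the 75th percentile, so no gene of the list passed 2-fold there. Fkbp8 had a ratio of -0.54, Cdc37 0.46, Tomm34 -0.43 and Stip1, which links HSP70 to HSP90, 0.42.

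Chaperonins and prefoldin, which fold actin and tubulin, stayed close to 0. All 15 genes were measured, none was 2-fold apart, and the median was 0.06, or -0.10 with each array divided by its median. Pfdn1 had a ratio of 0.55, Cct2 0.28, Tcp1 -0.23 and Pfdn6 -0.19. Chaperones of the endoplasmic reticulum had a median of 0.12 over 17 measured genes, or -0.04 with each array divided by its median. Of these 17 genes, 1 was at least 2-fold higher, beside 5.50% of all measured genes, and none was 2-fold lower. Serpinh1, the collagen chaperone HSP47, had 3513 with LPS+CPN+GGOH and 45.5 with LPS+CPN, under the floor, and was at least 58.6-fold higher. It moved in the direction of the mesothelial and fibroblast markers, whose part was not tested. The disulfide isomerase genes Pdia6 (0.67), Pdia3 (0.66) and P4hb (0.63) and the HSP90 gene of this compartment, Hsp90b1 (0.44), were above 0 and short of 2-fold by their gene values, with a second Hsp90b1 probe set at 1.35. Hspa5 (BiP), the HSP70 protein of this compartment, had a ratio of -0.22 with probe sets of both signs.

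Among the heat shock factors with a probe set, Hsf2 had 256 with LPS+CPN+GGOH and 284 with LPS+CPN (log2 ratio -0.15) and Hsbp1, a small protein that binds HSF1, had a ratio of 0.43 with probe sets of both signs. Hsf1 had no single-gene probe set in the annotation used. Other genes known as heat-inducible HSF1 targets, a list that shares genes with those above, had a median of 0.18 over 14 measured genes. The median was 0.01 with each array divided by its median. Of the 14, 3 were at least 2-fold higher (Serpinh1, Hspb8 and Cryab), beside 5.50% of all measured genes. None was at least 2-fold lower, beside 1.66% of all measured genes. Serpinh1 and Hspb8 were above the floor with LPS+CPN+GGOH alone, so their ratios could not be below 0. In all, 8 were above 0 and 6 below 0.

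**Figure D4:**
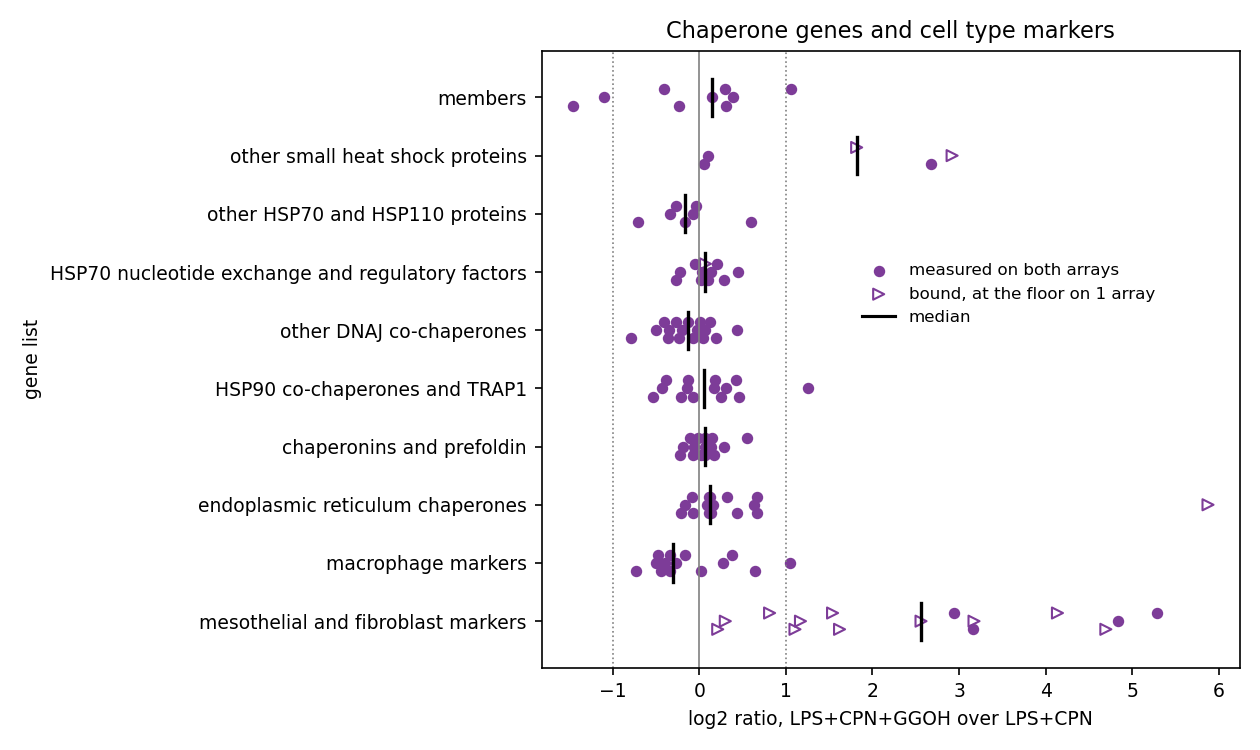
Log2 ratio of LPS+CPN+GGOH over LPS+CPN (horizontal axis) for the measured genes of each chaperone list and of 2 marker lists (rows), where members stands for the 9 heat shock chaperone genes, black bars are medians, filled points are genes measured on both arrays and open triangles are bounds. Medians lie between -0.30 and 0.15 for all lists shown except other small heat shock proteins (1.82) and mesothelial and fibroblast markers (2.56); the heat shock factors, the list of HSF1 targets and the other leukocyte markers are not drawn.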

How the data were processed

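Mouse arrays of 2 samples were used, 1 per treatment. The authors deposited 1 signal intensity per probe set; the submitters' processing notes name MAS5, and its version, scaling target and detection calls are not stated there. The mean intensity after trimming 2% at each end was 500.0 on both deposited arrays, and the median was 63.7 with LPS+CPN+GGOH and 56.7 with LPS+CPN. Of 45101 probe sets, 64 were controls, 34945 had 1 gene symbol, 932 several and 9160 none; the gene IDs of 34741 single-gene probe sets were found in RefSeq (GRCm38.p6), and no symbol changed.

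Gene values were computed from 32907 probe sets after 2038 of the _x_at class were left out. Members and lists were chosen with earlier results of these data known. Of each list the text names up to 4 genes with the ratios farthest from 0, and Hsf1, Hspe1, Hspa4, Hspa5, Hspa9, Hsp90b1, Bag3, Cryab, Hspb8, Stip1 and Serpinh1; the other list genes named were chosen after their values were seen. There were 9 other settings planned, and 1 was added after seeing the data: division by each array's median, quantile normalization, lowess (span 0.4), equal macrophage markers, a pseudocount equal to the floor, a floor at the 25th or the 75th percentile, the median over probe sets, _x_at probe sets kept, and (added) the last 2 together. The steps were tested on simulated data. With 2 arrays no gene was sought for likeness of pattern. Python 3.11.15, pandas 2.3.3 and statsmodels 0.14.6 were used.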

Additional observations from a re-analysis of the deposited data

How the results depend on the processing

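Over 10 other settings, 88 of 90 values of the 9 genes moved by less than the SD between probe sets (0.45), and 4 took the other sign. The 2 that moved further were Hspa8 with _x_at probe sets kept (-0.80) and as the median over all its probe sets (-0.06, a setting added after seeing the data). Most settings could move these values little. Both other floors left all 9 unchanged, and division by medians or equal macrophage markers moved every gene by a common amount. Genes with 1 probe set outside the _x_at class could not move as a median over such probe sets. The count of 88 is therefore no measure of how firm the values are. The number of genes at least 2-fold lower was 1 under equal macrophage markers, where Hspa1a was at -0.80, and 2 under the other 9 settings. The number at least 2-fold higher was 0 with each array divided by its median and 1 under the other 9. Hspa1b ranged from -1.66 to -1.15, Hspa1a from -1.27 to -0.80 and Hspb1 from 0.89 to 1.44, without a change of sign. The median of the 9 genes ranged from -0.23 to 0.45. Dividing by medians shifted the median of all genes by -0.16 and equal macrophage markers shifted it by 0.29, so that the share of higher genes among all those past 2-fold was 61.4% and 93.1%, beside 76.8% as deposited and 62.1% after quantile normalization. Of all genes, 191 were at least 2-fold lower as deposited, with a range from 79 (equal macrophage markers) to 1127 (floor at the 25th percentile), and 634 were higher, with a range from 126 (floor at the 75th percentile) to 1658 (floor at the 25th). The signals of the 9 gene values, 822 to 17731, lay well above the floor of 59.9, whereas Hspb8, Hspb2 and Serpinh1 are bounded by it; with the floor at the 75th percentile the Hspb8 ratio was 0.27. No paired analysis was possible because each group is 1 array.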
